A study of Mus musculus with 2 samples.

Results

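The GTPases of the immunity-associated proteins (GIMAP) are a family of small guanine nucleotide-binding proteins encoded by a row of neighboring genes, which lie on chromosome 6 in the mouse. The whole family was taken here as the 8 genes on the array that carry its name (Gimap1, Gimap3, Gimap4, Gimap5, Gimap6, Gimap7, Gimap8 and Gimap9), of 29875 genes with a probe. The family was selected on the measured BIO over control ratio of Gimap4, which was among the most reduced genes in these same arrays. The values of Gimap4 are therefore given as a description without a test, and the other 7 genes were taken by name, whatever their values.

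GIMAP proteins sit on intracellular membranes and are best known from lymphocytes, where they control cell survival. Loss of GIMAP5 causes lymphopenia in rodents, GIMAP1 is needed for mature T and B lymphocytes, and several members have also been described in endothelial cells. Proteins of the BCL2 family, the regulators of mitochondrial apoptosis, are known partners of some members.

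Ureters of NMRI wildtype embryos of undetermined sex were explanted at E12.5 and kept for 18 h in serum-free medium. The medium held either 10 µM BIO (6-bromoindirubin-3-oxime, an inhibitor of GSK3 that activates canonical WNT signaling) or the solvent DMSO at 2:1000 as control. RNA was extracted from pools of ureters, and 2 two-color arrays each compared 1 BIO pool with 1 control pool, with the dyes swapped in replicate 2. The comparison asks which transcripts change with BIO in the whole organ, epithelium and mesenchyme together, and n = 2 arrays limits the precision of every value. Whether a change came about through WNT signaling was not tested. In such bulk RNA, fewer cells of a type and less RNA per cell cannot be told apart.

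Each array held 157716 spots for biological probes, 4 for each 60-base probe, and no spot was saturated. Over all 28824 tested probes the log2 ratios of both arrays correlated with a Pearson coefficient of 0.80, as a description across probes that share their arrays. Erythroid transcripts were bright in both conditions, with summed processed signals of their 8 markers between 117050 and 214920. The tissue label matched bright signals for 10 markers of the ureteric mesenchyme (summed 135390 to 218300) and 10 of the ureteric epithelium (55220 to 102210).

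The 8 genes were covered by 10 probes, 3 of them for Gimap4, and all of them mapped to chromosome 6 between positions 48610775 and 48714522 of the mouse genome build mm9, a stretch of 103.7 kb. Along it lay, in this order, Gimap8, Gimap9, Gimap4, Gimap6, Gimap7, Gimap1, Gimap5 and Gimap3, with the Gimap6 and Gimap3 probes on the minus strand and the others on the plus strand. Family members resemble each other, so the probe sequences were compared. No pair of probes for different members shared more than 9 bases in a row, and no member probe shared more than 15 with a biological probe of another gene. Reverse complements were not searched. A pair is shown whose genes lie next to each other and gave unlike values. These are the Gimap9 probe and the first of the Gimap4 probes, each with 1 reading frame of 3 free of stop codons, read 5′ to 3′ with the bases that both share, when aligned without gaps, in capitals:
Gimap9, chr6:48627839-48627898, plus strand: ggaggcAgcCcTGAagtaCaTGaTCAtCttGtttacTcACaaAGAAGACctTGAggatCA
Gimap4, chr6:48640752-48640811, plus strand: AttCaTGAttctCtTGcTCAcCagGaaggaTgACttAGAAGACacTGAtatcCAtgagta
Of 54 aligned bases 28 were identical (51.9%). The Gimap9 probe matched that of the dim Gimap7 at more positions, 30 of 53 aligned bases (56.6%).

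In control ureters, 6 of the 8 genes gave signals well above background. These 6 also cleared it on every kept spot of both BIO pools, so that none was tested through its control signal alone. The values are processed signals, which the scanner software corrects for background and dye, in arbitrary units. They allow a comparison of conditions for 1 probe, not of levels between probes.

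Gimap4, which in T lymphocytes promotes cell death, gave on its brightest probe (48641817 to 48641876) 994.8 and 1187 in the control pools of replicates 1 and 2 and 75.53 and 180.9 in the BIO pools. The probe at 48641312 to 48641371 gave 438.7 and 559 in the controls and 45.71 and 89.57 with BIO. The probe shown above gave 406.5 and 497.6 in the controls and 36.89 and 80.29 with BIO. On each of the 3 probes both BIO values lay under both control values. The log2 ratios of BIO over control after normalization were -3.38 and -2.61 on the brightest probe, -2.85 and -2.34 on the probe shown, and -2.78 and -2.39 on the third. The mean of -3.00 on the brightest probe, which corresponds to a 7.98-fold lower value, placed Gimap4 at rank 5 from the lowest of 21574 tested genes, after Fabp4, Apela, Foxq1 and Ugt2b34.

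Gimap6, whose product has been linked to autophagy (probe at 48651666 to 48651725), gave 1669 and 1956 in the control pools and 199.4 and 449.2 in the BIO pools. Its log2 ratios of -3.00 and -2.12 averaged -2.56 ± 0.19 (SE, n = 2; limma adjusted p = 0.0001102). Here and below, each SE is the moderated one of limma, which also draws on the spread of all tested probes. It can be smaller than the spread of the 2 ratios alone. The ratios of both arrays differed by -0.89 on the log2 scale, and 3 of its 4 spots were kept on replicate 1.

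Gimap8, the member with repeated GTPase domains (48610775 to 48610834), gave 835.3 and 1139 in the controls and 168.3 and 293.9 with BIO. It fell by a mean log2 ratio of -2.07 ± 0.12 (SE, n = 2; limma adjusted p = 4.469e-05). Gimap1 (48693409 to 48693468) gave 421.9 and 580.9 in the controls and 83.49 and 165.9 with BIO, a mean log2 ratio of -1.91 ± 0.13 (SE, n = 2; limma adjusted p = 8.377e-05). Gimap5 (48703501 to 48703560) gave 180.2 and 196.7 in the controls and 30.66 and 46.15 with BIO. Its mean log2 ratio was -1.79 ± 0.12 (SE, n = 2; limma adjusted p = 6.773e-05). In all 3 genes the control and BIO values did not overlap. Here, as for Gimap4 and Gimap9, the share of all genes without overlap was not counted, so this is a description only.

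Gimap9 (48627839 to 48627898), which lies between the Gimap8 and Gimap4 probes, gave 336.8 and 325.9 in the controls and 232.4 and 292.8 with BIO. The BIO values again lay under the control values, but the log2 ratios of -0.62 and -0.21 averaged -0.42 ± 0.13 (SE, n = 2). With limma the adjusted p was 0.05235, just outside the threshold of 0.05, and it ranged from 0.03588 to 0.4353 over 8 alternative settings. The difference between Gimap9 and the other members was not tested.

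Gimap7 (48674271 to 48674330) and Gimap3 (48714463 to 48714522) were too dim to be tested. The Gimap7 probe was not well above background on any spot of either pool, with processed signals between 1.065 and 2.539. Gimap3 gave 9.859 and 11.75 in the controls and 7.14 and 10.85 with BIO. The share of its spots that cleared the background was 1 and 0.5 in the control pools and 0 and 1 in the BIO pools of replicates 1 and 2. Its log2 ratios were -0.03 and -0.05 and those of Gimap7 0.03 and 0.01, values that say little at such signals. The plot of the probe signals shows these dim probes at the bottom of the scale and the overlap of control and BIO for Gimap7.

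**Figure D1:**
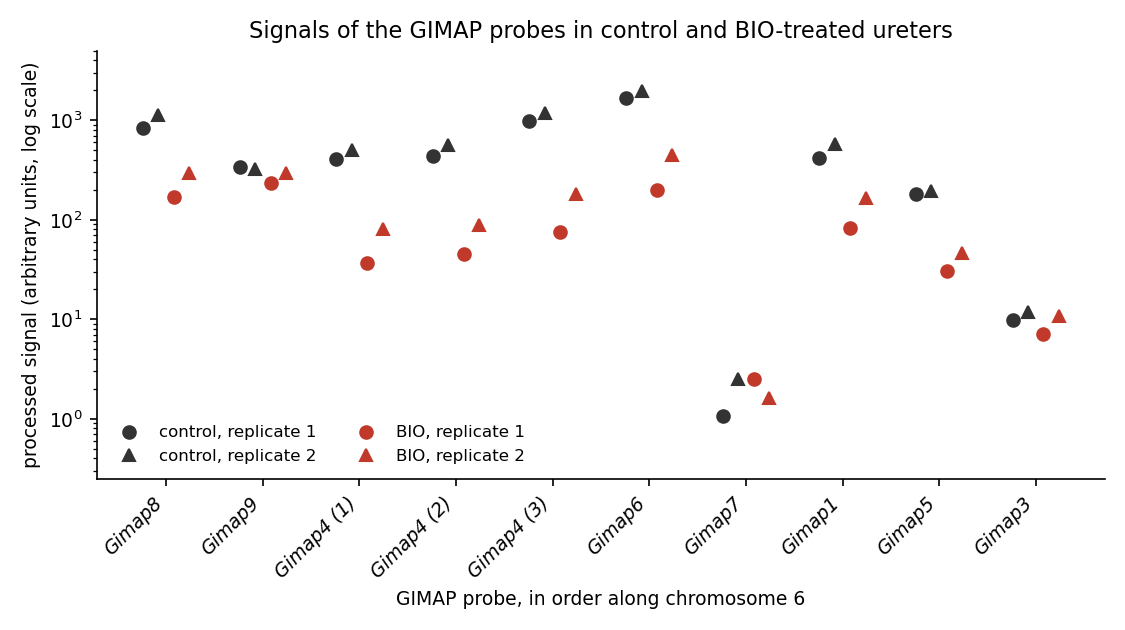
Processed signal (arbitrary units, log axis) of the 10 GIMAP probes in the order of their position on chromosome 6, with Gimap4 (3) as its brightest probe. Each point is 1 pool on 1 array (gray, control; red, BIO; circles, replicate 1; triangles, replicate 2); in the 5 fallen genes the BIO points lie clearly under the control points, while those of Gimap9 lie close together.

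Of the 6 genes tested, 5 thus fell and 0 rose. Without Gimap4 the count was 4 of 5. Of all 21574 genes tested, 14.8% fell and 9.13% rose by the same criterion, a limma adjusted p under 0.05. The members were measured on the same arrays on which Gimap4 was picked, so these counts are no independent support. All 6 tested members had a ratio under 0 on both arrays, as did 38.1% of all tested genes. The median log2 ratio of the 6 was -1.99, against -0.01 for all tested genes. A simpler criterion asked for an intensity of at least 100 in the brighter channel and a 2-fold difference on each array. It was met downward by 5 of the 8 members, Gimap4 included, and by 1.47% of all genes. The 5 were again Gimap1, Gimap4, Gimap5, Gimap6 and Gimap8, the other 3 being Gimap9 and the dim Gimap3 and Gimap7. In replicate 1, Gimap1, Gimap4 and Gimap5 reached 100 in the control only, with 83.49, 75.53 and 30.66 in the BIO pool. For Gimap5 this held in replicate 2 as well, with 46.15. The same 5 genes met the criterion at 1.5-fold and at 3-fold. Of all 29875 genes, 1044 met it at 1.5-fold, 440 at 2-fold and 160 at 3-fold.

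The size of the reduction was larger on replicate 1 in all 6 tested members, with medians of -2.18 and -1.80. Of the 3184 genes that fell, 70.8% were likewise more negative on replicate 1, and of the 584 of them with a mean log2 ratio of -1 or lower, 83.7%. Dye and pool changed together between the arrays and cannot be told apart. The plot of the ratios by array shows this offset beside the spread between the members, whose means ran from -3.00 for Gimap4 to -1.79 for Gimap5, with Gimap9 at -0.42. The order of Gimap1, Gimap5 and Gimap8 depended on the normalization, which adds an offset of 50 that draws the ratios of dim probes toward 0. With processed signals Gimap5 was at -2.32, below Gimap8 at -2.13 and Gimap1 at -2.07.

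**Figure D2:**
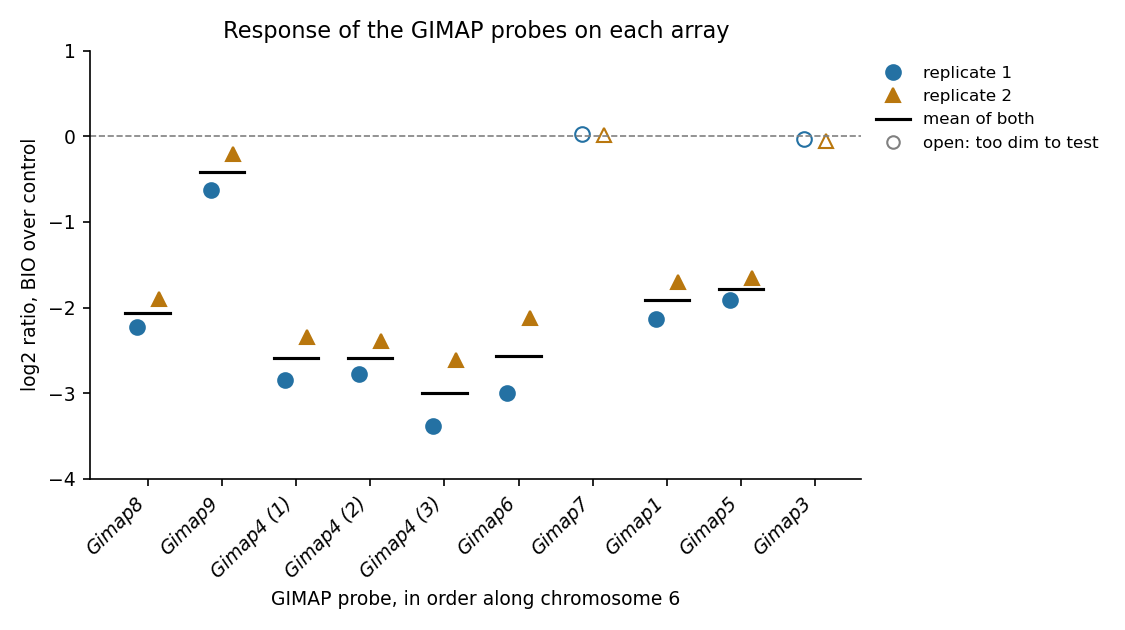
Log2 ratio of BIO over control of the 10 GIMAP probes on each array (blue circles, replicate 1; ocher triangles, replicate 2; black bars, mean of both, n = 2). Filled symbols were tested and open symbols were too dim; the dashed line at 0 marks equal signals, and replicate 1 lies lower in every tested probe.

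The neighborhood was then searched for genes outside the family, within 1 Mb on either side of the outermost probes. Of 46 such genes 41 were tested, of which 4 fell and 6 rose, beside 14.8% and 9.13% of all tested genes. The median log2 ratio of the 41 genes was 0.05. The lowest was Gimap1os, an RNA antisense to Gimap1, whose probe (48688472 to 48688531, minus strand) lies inside the cluster. Its signals were 44.71 and 75.93 in the controls and 9.925 and 25.37 with BIO, where in replicate 1 a share of 0.25 of the spots was well above background. Its mean log2 ratio was -0.99 ± 0.11 (SE, n = 2; limma adjusted p = 0.0005227). At these dim signals the offset weighs most. The processed signals of Gimap1os gave log2 ratios of -2.17 and -1.58, the first of them with BIO close to background, so the size of its reduction is not settled. The other 3 genes that fell were Atp6v0e2, a subunit of the vacuolar proton pump, AI854703 and Tmem176a, with mean log2 ratios of -0.55, -0.50 and -0.48. They were named after their values were seen, as they complete a count of 4. The highest was Gpnmb, a transmembrane glycoprotein, which rose from 160.1 and 123.1 to 446.2 and 658.6 (mean log2 ratio 1.67 ± 0.18, SE, n = 2; limma adjusted p = 0.0005354).

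**Figure D3:**
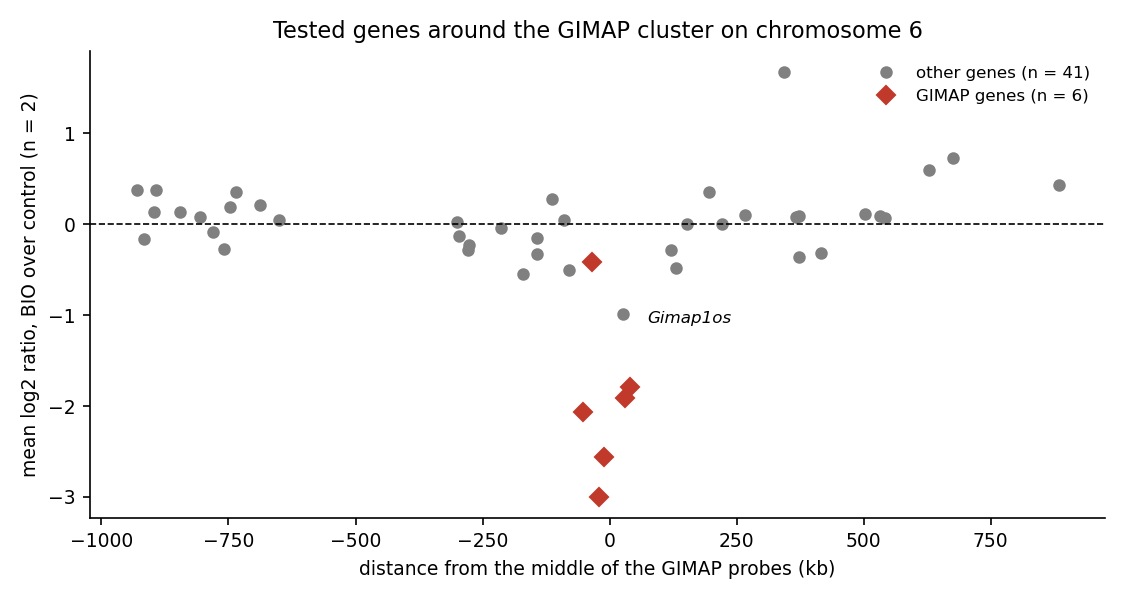
Mean log2 ratio of BIO over control (n = 2 arrays) against the distance in kb from the middle of the GIMAP probes on chromosome 6, for 6 tested GIMAP genes (red diamonds) and 41 other tested genes (gray circles). The fallen GIMAP genes lie between -3.00 and -1.79; Gimap1os, at -0.99, is drawn toward 0 by the offset, as its BIO signal was close to background on replicate 1.

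As 5 of the 6 tested members fell, the 250 bases before each RefSeq transcription start were searched on both strands (build GRCm38.p6, a later build than that of the probes). The search was for short words bound by factors of blood, endothelium or WNT signaling. All 8 genes matched, with 9 windows, as Gimap8 has 2 starts. The word AGGAAG, a core of ETS factor sites, was found in 7 of the 9 windows and in 29.5% of all 32851 windows. This exact word was missing upstream of Gimap6, which fell, and at 1 start of Gimap8, and was present for the dim Gimap3 and Gimap7. Other forms of ETS sites were not counted, so a window without the word may still hold such a site. The Gimap6 window holds CGGAAG, which differs from the word in the first base only. TGTGGT, a core of RUNX sites, was found in 3 windows (Gimap1, Gimap4 and Gimap7; 14.0% of all windows). CTTTGA, a core of TCF/LEF sites, and AGATAA, a core of GATA sites, were found in 0 of the 9, against 13.8% and 9.99% of all windows. These counts are descriptions of letters in a window. The windows of Gimap4, which was lowest, and Gimap9, which missed the threshold, are shown 5′ to 3′ with AGGAAG or its reverse complement in capitals:
Gimap4, chr6:48684328-48684577, plus strand: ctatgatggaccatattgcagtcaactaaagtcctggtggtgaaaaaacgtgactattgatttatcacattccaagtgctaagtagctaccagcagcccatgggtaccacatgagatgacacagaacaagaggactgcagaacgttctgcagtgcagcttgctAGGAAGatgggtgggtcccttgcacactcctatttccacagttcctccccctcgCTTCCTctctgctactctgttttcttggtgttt
Gimap9, chr6:48675885-48676134, plus strand: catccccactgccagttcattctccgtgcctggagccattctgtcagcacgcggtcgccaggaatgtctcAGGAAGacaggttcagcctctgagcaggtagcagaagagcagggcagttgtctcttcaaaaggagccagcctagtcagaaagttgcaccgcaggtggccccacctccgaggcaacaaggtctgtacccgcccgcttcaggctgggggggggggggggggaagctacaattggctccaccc
The word occurs 2 times in the first and 1 time in the second.

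To find genes with a like pattern, the distance to the pair of ratios of Gimap4 was computed for each tested gene outside the family over the 2 arrays, which with 2 points reflects size alone. The nearest was Tm4sf1, a membrane protein of endothelial and other cells, at a distance of 0.37 on the log2 scale, with ratios of -3.02 and -2.70. It was followed by Ugt2b34, a glucuronosyltransferase (-3.80 and -2.53, distance 0.42), and Ctla2a, a protease inhibitor (-3.02 and -2.36, distance 0.43). Scin, an actin-severing protein (-2.86 and -2.54, distance 0.53), and Sox7, a transcription factor of endothelial cells (-3.35 and -2.08, distance 0.53), came next.

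GIMAP genes are used by lymphocytes and endothelium, so markers of these and other cell types were set beside them. The counts in each list are to be read beside all tested genes, of which 14.8% fell and 9.13% rose. Endothelial markers were lower in the BIO pools as a list. Of 25 markers, all tested, 24 fell and 0 rose, and their median log2 ratio was -1.79 (-2.17 and -1.41 on replicates 1 and 2), close to that of the members. The summed processed signal of the list was 67089 and 80692 in the controls and 14755 and 25978 with BIO. Kdr, the main VEGF receptor and the brightest of the list, was also the lowest, with 8961 and 10720 in the controls against 1075 and 2276 with BIO (mean log2 ratio -2.63 ± 0.20, SE, n = 2; limma adjusted p = 0.0001159). Lyve1, a marker of lymphatic endothelium, was the highest at -0.43 ± 0.16 and the only one that missed the threshold (adjusted p = 0.09701). The part of these cells in the reduction of the GIMAP genes was not tested.

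T lymphocyte markers had a median close to 0. Of 15 markers 10 were tested, 0 fell and 2 rose, with a median of -0.02. The T cell receptor subunits Cd3d and Cd3g and the coreceptor Cd8a gave processed signals of at most 6.523, with at most a share of 0.25 of the spots above background in any pool. A further subunit, Cd3e, was measurable, with 108.4 and 124.2 in the controls and 129 and 115.2 with BIO. These 4 genes were named for what they define, after their values were seen. Cd4, the coreceptor that macrophages carry as well, was the brightest of the list, with 2457 and 1461 in the controls and 3210 and 1134 with BIO, ratios of opposite sign (0.36 and -0.39). The lowest ratio after normalization, -0.32 ± 0.13 (limma adjusted p = 0.1302), was that of Il7r, the interleukin 7 receptor. Its signals were 13.1 and 17.28 in the controls and 2.792 and 15.03 with BIO, and 0 of its spots cleared the background with BIO in replicate 1, so this ratio and its rank are uncertain. The summed signals of the list were 3751.8 and 2920.7 in the controls and 4611.3 and 2803.5 with BIO, so that they overlapped. Cd4 held the largest part of each sum, so this overlap says little about the dimmer markers. Of 9 B lymphocyte markers 4 were tested, with a median of 0.04. Cd79b fell (-0.99 ± 0.11, limma adjusted p = 0.0006047), 0 rose, and Cd79a was highest at 0.21 ± 0.11 (limma adjusted p = 0.2119).

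Of 8 pan-leukocyte markers 5 fell and 0 rose, with a median of -0.55. Their summed signals were 2262.7 and 2827.7 in the controls and 1474.9 and 2069.4 with BIO. Cd52, a surface glycoprotein of leukocytes, was the lowest, with 231.4 and 336.1 in the controls and 62.43 and 88.34 with BIO (-1.66 ± 0.11, SE, n = 2; limma adjusted p = 7.41e-05). Coro1a, an actin regulator and the brightest of the list, gave 1049 and 1341 in the controls and 768 and 1109 with BIO (-0.40 ± 0.11, limma adjusted p = 0.03731). The highest was Was, another actin regulator, at -0.22 ± 0.12 (limma adjusted p = 0.2421). Of 11 macrophage markers tested of 12, 6 fell and 0 rose, with a median of -0.44, from Cx3cr1, the fractalkine receptor, at -1.75 ± 0.14 (limma adjusted p = 0.0001548) to Mrc1, the mannose receptor, at 0.08 ± 0.11 (limma adjusted p = 0.6466). The summed signals of the macrophage list were 12130 and 13673 in the controls and 8089.1 and 11804 with BIO. The part of leukocytes in the reduction of the GIMAP genes was likewise not tested.

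The remaining lists of cell types had medians between -0.90 and -0.10. Of 6 megakaryocyte and platelet markers 0 fell and 2 rose, with a median of -0.10, and ranged from Gp1bb, a platelet receptor subunit, at -0.25 (limma adjusted p = 0.1591) to Pf4, a platelet chemokine, which rose by 2.03 ± 0.15 (limma adjusted p = 9.722e-05). Of 8 erythroid markers 3 fell and 0 rose, with a median of -0.37, from the globin Hba-a1 at -0.65 ± 0.14 (limma adjusted p = 0.01267) to Klf1, an erythroid transcription factor, at -0.18 ± 0.16 (limma adjusted p = 0.467). In the ureter proper, 7 of 10 epithelial markers fell and 0 rose, with a median of -0.90, between Foxa1, a transcription factor, at -2.17 (limma adjusted p = 0.0002113) and Epcam, an adhesion molecule, at 0.02 (limma adjusted p = 0.9068). Of 10 mesenchymal markers 6 fell and 0 rose, with a median of -0.50, between Pdgfrb, the PDGF receptor of perivascular cells, at -2.17 (limma adjusted p = 7.913e-05) and Ptch1, the SHH receptor, at 0.08 (limma adjusted p = 0.7419). The plot of the lists shows the medians of the GIMAP genes and the endothelial markers to the left of the others. Single genes overlap between the lists, as with Foxa1 and Pdgfrb.

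**Figure D4:**
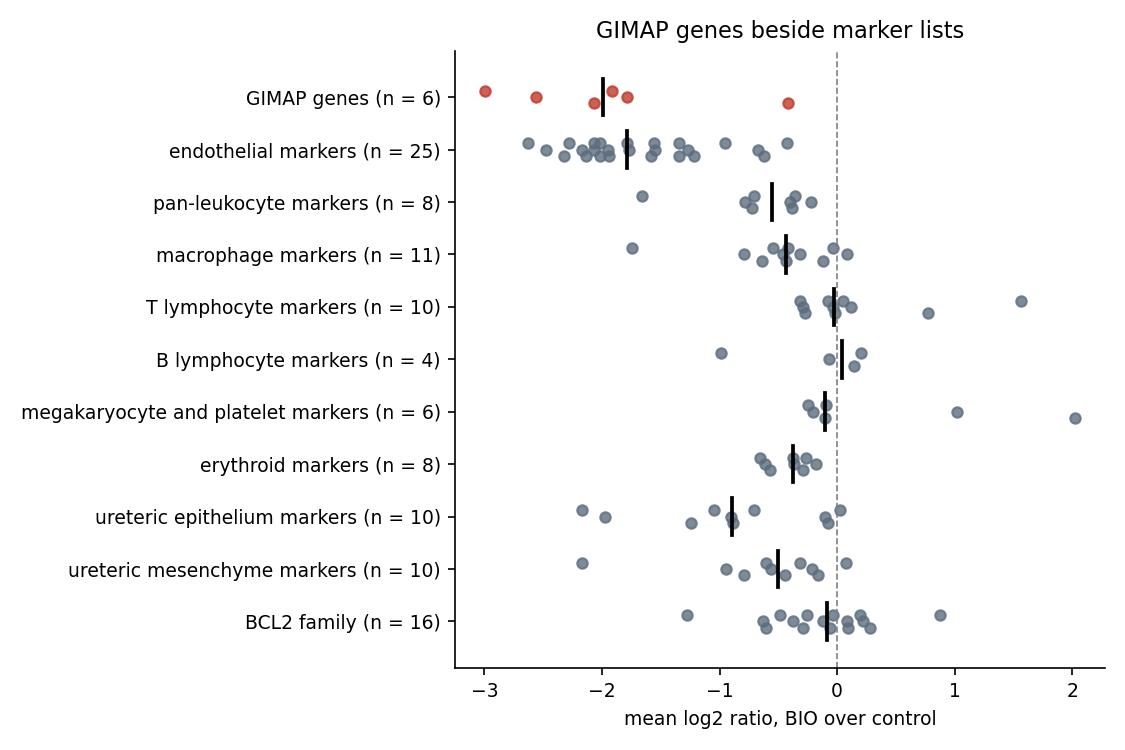
Mean log2 ratio of BIO over control (n = 2 arrays) of the tested genes of each list; every dot is 1 gene, set apart vertically for legibility, and black bars are medians. The medians of the GIMAP genes (-1.99) and of the endothelial markers (-1.79) lie lowest.

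BCL2 family genes, as partners of GIMAP proteins in the control of survival, were measured with 16 of 18 genes. Of these 5 fell and 1 rose, beside 14.8% and 9.13% of all tested genes, with a median log2 ratio of -0.09. The lowest was Bik, which promotes apoptosis and gave 227.8 and 324.5 in the controls and 84.35 and 127 with BIO (-1.27 ± 0.11, SE, n = 2; limma adjusted p = 0.0001808). The gene that rose was Pmaip1, which encodes the apoptosis-promoting NOXA, from 253.6 and 230.7 to 453.5 and 539.1 (0.88 ± 0.12, SE, n = 2; limma adjusted p = 0.00187). Bcl2 itself, named after its value was seen, gave -0.25 ± 0.11 and did not pass (limma adjusted p = 0.1381).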

How the data were processed

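Per the labels, RNA of pooled ureter explants was hybridized to 2 two-color Agilent arrays of 60-base probes with swapped dyes. The 2 arrays shared a slide and a scan. According to the submitters' processing notes, Agilent Feature Extraction (version 10.7.3.1) read the spots, and the deposited scanner files hold the intensity of each spot and its background. A table deposited by the authors holds 1 score per probe and array (median 1 on both) of unstated scale, which its values show to be a signed fold of BIO over control rounded to a single decimal. On the log2 scale it correlated with the processed signals at 0.988 and 0.982, and it served as an alternative.

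Mean signals were background-corrected (normexp, offset 50) and loess-normalized within each array, without weight for control spots and for the 3.49% and 3.16% of spots marked as outliers. The kept spots of a probe were averaged, replicate 2 was turned, and ratios were tested against 0 with limma 3.58.1 in R 4.3.3 (two-sided, Benjamini-Hochberg adjustment over 28824 probes). A probe was tested if more than a share of 0.5 of its spots cleared the background in both control pools or in both BIO pools. The probe with the highest mean intensity stood for a gene. The median moderated SE was 0.11. The pools were labeled as separate replicates. The p-values draw on the spread between these 2 arrays and on the spread shared by all tested probes. In limma the shared part carried a weight of 7.14 prior degrees of freedom, more than the 2 ratios of a probe supply. The p-value of a gene therefore reflects mostly the shared spread and less its own difference between the arrays. Symbols were updated through RefSeq accessions (28328 probes), symbols (3400) or synonyms (243), and 7458 kept the name of the file.

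The members and gene lists were chosen with earlier results of these data known. Named genes are the 8 members, the 5 genes nearest to Gimap4, the lowest and highest tested gene of each list and of the neighborhood, and the brightest control-channel gene of the T lymphocyte, pan-leukocyte and endothelial lists; 1 gene that this rule names is not reported here. The fit was tested on simulated data.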

Additional observations from a re-analysis of the deposited data

How the results depend on the processing

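With processed signals, median centring, an offset of 16, no background correction, no filter, the mean of all probes, or adjustment over 1 probe per gene, 5 members fell, except that Gimap9 joined them with the mean of all probes (limma adjusted p = 0.04058) and with 1 probe per gene (0.03588). Of all tested genes, 5.22%, 8.99%, 13%, 14.8%, 9.76%, 15.8% and 15.9% fell in these settings, in this order. Gimap9 was thus called in the settings with the highest shares, 15.8% and 15.9%. With the deposited score table, the calls of fallen members dropped to 0 and of endothelial markers to 3, although the median ratio of the members was -2.22. In that table Gimap1, Gimap4, Gimap5, Gimap6 and Gimap8 had mean log2 ratios of -2.08, -3.19, -2.33, -2.61 and -2.11. The score is rounded, and 6338 of 28824 tested probes (22.0%) have equal values on both arrays there, which enters the variance that limma estimates over all probes, so the count of 0 is hard to read. Its part in the lost calls was not tested. Over all genes it called 1319 fallen and 1929 risen, against 3184 and 1970. Processed signals called 1126 and 797 and median centring 1939 and 827. Of the genes around the cluster, 1 fell with processed signals, against 4. The median ratio of the members was -1.80 without replicate 1 and -2.18 without replicate 2. A single array leaves no residual degrees of freedom, so limma calls could not be counted without a replicate. The intensity and fold criterion found 5 members lower on either array alone. Of all 29875 genes, 539 met it without replicate 1 and 707 without replicate 2, against 440 on both arrays. The ratio within each array already pairs a BIO with a control pool, so the test is a paired one and no further replicate block could be added. The number of arrays, and signals close to background for Gimap3 and Gimap7, limit these results.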
